A study of Mus musculus with 21 samples.

Results

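The cells described here were mouse CD8 T cells that held RNA of Gzmb, the gene of granzyme B, after 10 days of culture in high-dose IL-15. They were chosen by their own measured Gzmb count, as the cells of a single library, 50 IU/mL IL-15 on day 10, with at least 1 UMI (unique molecular identifier, the tag of a single captured RNA molecule) of Gzmb. They numbered 1817 of the 6548 cells of that library, or 27.7% (95% exact interval 26.7 to 28.9%), and the whole series held 106456 cells. The other 4731 cells of the library had 0 Gzmb UMIs and were the cells they were compared with, after matching on UMIs per cell. A cell with 0 Gzmb UMIs may still have held the RNA uncaptured, so the split separates cells by detection.

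The study profiled single OT1 cells, CD8 T cells with a transgenic receptor for an ovalbumin peptide, in 21 libraries with 1 library per condition. Naive cells were taken on day 0. All other cells were activated with anti-CD3 and anti-CD28 beads and were cultured without cytokine to day 3 or 5, or with IL-2, IL-2v (a mutant IL-2 by its label) or IL-15 at 5 or 50 IU/mL to day 3, 5 or 10. With 1 library per condition there were no replicates, no p-value was computed, and every interval below covers counting error only. The treatment label of the library described here names interleukin-16, and that of the 3 libraries of 50 IU/mL IL-2 names interleukin-3, while the titles and the design text give IL-15 and IL-2, which were followed. The extraction text names a sort of CD44+ CD45.1+ CD8+ tumour-infiltrating cells, whereas the growth text describes this culture, so the sort of these cells is not certain. All cells came from the same receptor-transgenic line, and the labels do not say how many mice or cultures a library pooled.

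Granzyme B is a serine protease that cytotoxic T cells and NK cells store in granules, and it kills target cells after perforin has opened a way into them. IL-15 and IL-2 signal through the same beta and gamma receptor chains and STAT5, and IL-15 is known for sustaining memory CD8 T cells, while strong IL-2 signals are known for inducing effector genes such as Gzmb. Memory and naive T cells keep the transcription factor TCF1, made by Tcf7, which declines as T cells become effectors.

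Among the 21 libraries, 3250 to 7105 cells were kept per library, with 10589950 to 32648496 UMIs in all and a median of 3016 to 5065 UMIs per cell. The library of 50 IU/mL IL-15 on day 10 shared 3 to 19 cell barcodes with each other library. Its cells carried T cell RNA: all 10 T cell markers were detected, and Cd3d, a chain of the CD3 complex, had a UMI in 98.5% of the Gzmb-positive and 98.4% of the Gzmb-zero matched cells.

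Gzmb was low in this library as a whole, at 93.1 CPM (UMI counts scaled to the same library total, 95% Poisson interval 89.7 to 96.5). On day 10 it was 2.23 CPM in 5 IU/mL IL-15, 512 CPM in 5 IU/mL IL-2v, 912 CPM in 5 IU/mL IL-2, 3143 CPM in 50 IU/mL IL-2v and 7618 CPM in 50 IU/mL IL-2. The high-dose IL-15 library therefore lay between the low-dose IL-15 library and all 4 libraries of IL-2 or IL-2v of that day. In 50 IU/mL IL-15 itself, Gzmb stood at 899 CPM on day 3 and 462 CPM on day 5. In such sums, fewer cells with the RNA and less RNA per cell cannot be told apart, and at so low a level the shares of cells with a UMI below do not separate them either.

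After each cell was thinned to 2000 UMIs, 13.9% of the cells of this library (13.1 to 14.8%) held a Gzmb UMI, with 110 shallower cells left out. The same share was 0.738% in naive cells, 0.445% in 5 IU/mL IL-15 on day 10, 51.5% in 50 IU/mL IL-15 on day 5 and 99.0% in 50 IU/mL IL-2 on day 10. Naive cells, which are not known for granzyme B, were used for comparison. Without thinning 1.09% of them held a Gzmb UMI at a median of 3799 UMIs per cell, against 27.7% here at a median of 4383. The share here was thus far above that of naive cells, whose library held Gzmb at 6.50 CPM. Of the 52 naive cells with a Gzmb UMI 30 held 2 or more. A background share of this library itself was not measured, and the cells without a UMI are not shown to lack the RNA.

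**Figure D1:**
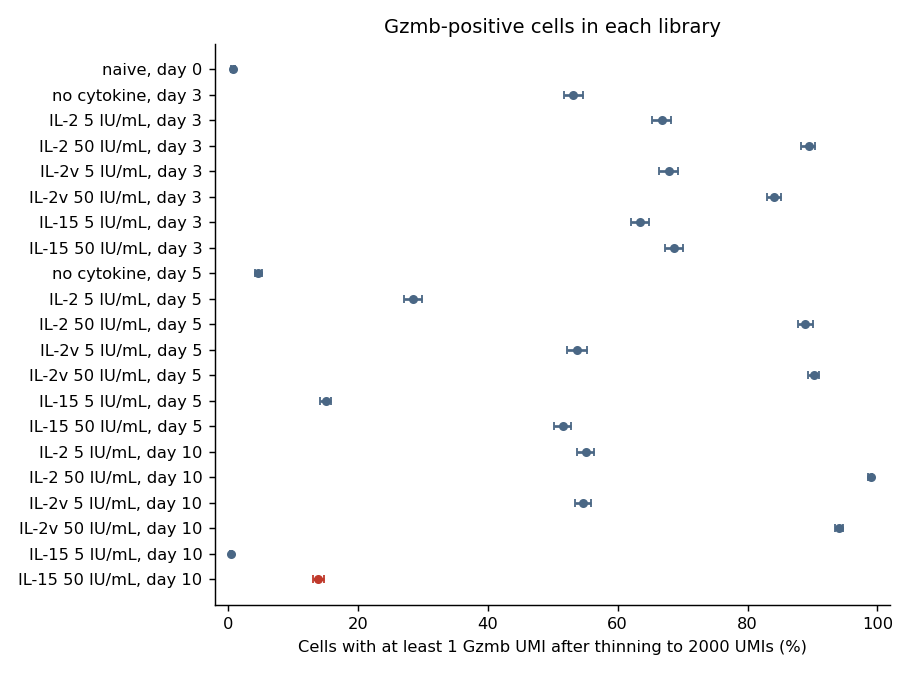
Share of cells with at least 1 Gzmb UMI after thinning to 2000 UMIs per cell (x axis, percent) in each of the 21 libraries (y axis); points are shares, bars are 95% exact binomial intervals, and the red point is 50 IU/mL IL-15 on day 10. That library sits at 13.9%, above 5 IU/mL IL-15 on day 10 at 0.445% and below every IL-2 or IL-2v library of day 10.

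Most positive cells held very little Gzmb. Of the 1817 cells, 1170 held exactly 1 UMI, 377 held 2, 247 held 3 to 5 and 23 held 6 or more. The cells just inside the limit, those with 1 UMI, had a median of 4755 UMIs in all, against 4192 for the cells just outside it with 0 UMIs, and the cells with 3 to 5 had 5495. Deeper cells therefore had more chance of being positive, which is why the comparison was matched on depth. Over the thinned cells of the library the mean was 0.173 Gzmb UMIs per cell.

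Gzmb lies on the minus strand at chr14:56258838-56262260 (mouse build GRCm38, GENCODE). Its promoter is shown because this gene defines the cells: the 250 bases before the start that RefSeq lists (build GRCm38.p6, chr14:56262335-56262584, minus strand), with matches to searched motifs in capitals.
Gzmb: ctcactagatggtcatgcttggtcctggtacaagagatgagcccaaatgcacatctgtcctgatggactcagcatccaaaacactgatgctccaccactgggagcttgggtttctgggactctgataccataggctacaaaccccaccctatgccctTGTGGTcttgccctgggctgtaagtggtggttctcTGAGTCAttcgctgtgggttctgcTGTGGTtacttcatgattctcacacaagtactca
It held the RUNX motif TGTGGT, whose first base lay at -93 and again at -34 from the RefSeq start. It also held the AP-1 motif TGANTCA as TGAGTCA at -58, with no overlap between the matches. The RefSeq start lies upstream of the GENCODE start of Gzmb, so positions from the GENCODE start would differ. Both strands were searched, also for T-box (GGTGTGA), STAT (TTCNNNGAA), CRE (TGACGTCA) and TCF/LEF (CTTTGAA) motifs. Among 32851 promoter windows of the same length, 14.05% held the RUNX motif, 6.75% AP-1, 7.02% STAT, 4.46% TCF/LEF, 3.33% T-box and 1.55% CRE. None of these letters was found in the same windows of Ifitm1, Ccr2, Tcf7 (windows of 2 starts) or Dapl1, genes described below. By GENCODE positions the Ifitm1 window, most of the Ccr2 window and a Tcf7 window lie within the gene. A match is a run of letters and not a measured binding site.

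The depth-matched comparison held 1739 Gzmb-positive and 1739 Gzmb-zero cells, drawn in equal numbers from bins of 100 UMIs counted without Gzmb. The arms had a median of 4885 and 4887 UMIs and of 1575 and 1567 genes per cell. Mitochondrial UMIs made up a median of 3.51% and 3.54%, and ribosomal protein UMIs 39.7% and 40.7%. Gzmb itself stood at 296 CPM in the positive arm and at 0 in the other by construction, and it was left out of all totals below. Differences are given as log2(CPM + 1) of positive minus zero cells, a scale that understates the difference of low genes. Because the cells were split by one of their own RNAs, these values describe the split and carry no test.

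The transcriptomes of the 2 arms were close. Of 2361 genes that reached 50 CPM in either arm, 3 were at least 1.5-fold higher in Gzmb-positive cells (0.127%) and 0 were 1.5-fold lower (0%). The median difference over all 2361 genes was 0.019. The 3 genes were Ccl5, Ifitm1 and Ccr2. A lower limit of 1.2-fold, chosen after seeing that few genes passed, gave 25 genes higher (1.06%) and 9 lower (0.381%). At either limit the higher genes outnumbered the lower ones, while 58.4% of all tested genes were above 0. The counts include genes tested through a single arm, whose direction was fixed by the filter. Among them were Ccr2, Cd44, Eomes and Birc5 upward and Arl5c downward, so the counts are a description.

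**Figure D2:**
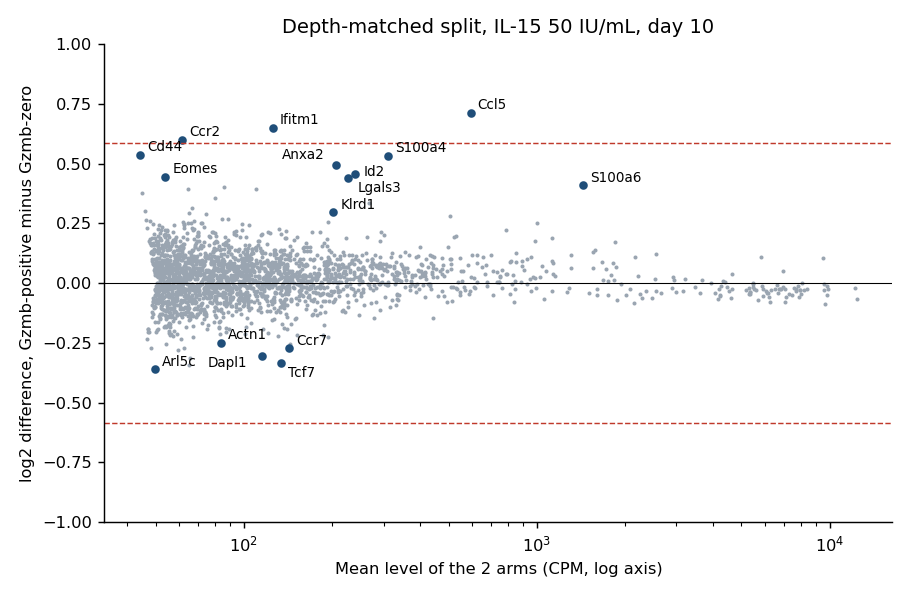
log2 difference of Gzmb-positive minus Gzmb-zero cells (y axis) against the mean level of both arms (x axis, CPM on a log axis) for 2361 genes at 50 CPM or more; each point is a gene, named genes are dark, and dashed lines mark 1.5-fold. Ccl5, Ifitm1 and Ccr2 lie above the upper line, and no gene lies below the lower one.

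Ccl5 encodes a chemokine that memory and effector CD8 T cells store and release. It stood at 738 CPM (721 to 756) in Gzmb-positive cells and 450 CPM (437 to 464) in Gzmb-zero cells, a log2 difference of 0.71 (0.66 to 0.77). A Ccl5 UMI was found in 47.4% of positive and 37.4% of zero cells, and 5 or more UMIs in 387 and 242 cells, so both arms held Ccl5-rich cells and the arms overlapped widely. Without depth matching the difference was 0.35 and after thinning to 2000 UMIs it was 0.56, both below the 1.5-fold limit, and with both depth and cycling matched it was 0.89. Ccl5 lies at chr11:83525778-83530518 on the minus strand. Its level ran the other way between the IL-15 libraries of day 10, at 607 CPM in 50 IU/mL and 1042 CPM in 5 IU/mL, where Gzmb was nearly absent.

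Ccr2 encodes a receptor for inflammatory chemokines and lies at chr9:124101950-124113557 on the plus strand. It stood at 74.2 CPM (68.8 to 79.8) in positive and 48.6 CPM (44.3 to 53.3) in zero cells, a log2 difference of 0.60 (0.44 to 0.78). The share of cells with a Ccr2 UMI was 25.7% and 17.2%. Ccr2 was tested through the positive arm alone, as were Cd44 and Eomes below, which ties their direction to the filter. This difference sat at the 1.5-fold limit, and it was 0.58 with depth and cycling matched and 0.63 after thinning. Between the IL-15 libraries of day 10, Ccr2 was 55.6 CPM at 50 IU/mL and 2.83 CPM at 5 IU/mL, the same direction as Gzmb.

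Ifitm1, an interferon-inducible membrane protein gene at chr7:140967221-140969825 on the plus strand, was carried by few cells. It stood at 154 CPM (146 to 162) in positive and 97.6 CPM (91.4 to 104) in zero cells, a log2 difference of 0.65 (0.53 to 0.77). Only 11.7% of positive and 9.60% of zero cells held a UMI of it, and the 10 richest positive cells held 358 of its 1466 UMIs. Among cells with at most 5% mitochondrial UMIs the difference was 0.43, and after thinning 0.45, both under the limit. Its paralogs Ifitm2 and Ifitm3 were below 50 CPM, at 40.2 against 27.5 CPM (log2 0.53) and 16.2 against 11.5 CPM (0.46). After thinning to 2000 UMIs Ifitm2 was at 0.19 and Ifitm3 at -0.20, the opposite direction. Bst2, another interferon-inducible membrane protein gene, was at 56.3 against 61.7 CPM (-0.13, interval -0.31 to 0.037), and at 0.018 after thinning. Of the 5 tested genes of that list 3 were above and 2 below 0, with a median of 0.027. All tested genes had 58.4% above 0 and a median of 0.019.

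Of 26 listed genes of migration and adhesion 22 were tested, 1 was past 1.5-fold upward and 7 past 1.2-fold, and 0 were past either limit downward. Of the 22 genes 19 were above 0 and 3 below, where 58.4% of all tested genes were above 0, with a median of 0.21 against 0.019 for all tested genes. The upward counts of this list include Ccr2, which was tested through the positive arm alone, so its direction was fixed by the filter. The S100 and annexin genes, which encode calcium-binding proteins of motile effector and memory T cells, included S100a6 at 1637 against 1233 CPM (log2 0.41), S100a4 at 368 against 254 CPM (0.53) and Anxa2 at 241 against 171 CPM (0.50). The other tested members of these families were closer to level, with S100a10 at 0.092, S100a11 at 0.12 and Anxa6 at 0.087. S100a6 was found in 94.3% of positive and 86.1% of zero cells. The exons of S100a4 overlap those of the annotated gene Gm42674 on the same strand over 51.7% of their bases, which makes its level less certain. The galectin genes Lgals3 and Lgals1 gave 262 against 193 CPM (0.44) and 1088 against 914 CPM (0.25).

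Among receptors of that list, Cxcr6, a receptor of tissue-homing T cells, stood at 211 against 177 CPM (0.25), but at 0.040 after thinning to 2000 UMIs. Cd44, an adhesion receptor used as a mark of activated and memory T cells, belongs to the costimulatory and activation list. It stood at 52.6 against 35.9 CPM (0.54) and was found in 23.2% against 16.4% of cells. Of the 8 tested genes of the costimulatory and activation list 4 were above and 4 below 0, with a median of 0.029. All tested genes had 58.4% above 0 and a median of 0.019. Cd44 was tested through the positive arm alone and Cd28 through the Gzmb-zero arm alone, which ties their direction to the filter. In the migration list Ly6c2, a surface protein gene of memory CD8 T cells, stood at 556 against 457 CPM (0.28). Not every homing gene leaned the same way: Cxcr3, another chemokine receptor of effector cells, was at 68.8 against 73.5 CPM (-0.093), and Itgb7, an integrin chain of gut homing, at 196 against 207 CPM (-0.081).

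Most other genes of cytotoxic granules were too low to compare. Of 21 genes of the cytotoxic granule list other than Gzmb 7 were tested, 5 were above 0, 2 below and 0 past 1.5-fold, with a median of 0.11. All tested genes had 58.4% above 0 and a median of 0.019. Nkg7, a granule membrane protein of killer lymphocytes, stood at 847 against 726 CPM (log2 0.22) with 8085 against 6930 UMIs. Srgn, which encodes the proteoglycan that packs granules, stood at 304 against 305 CPM, and Ctsw, a cathepsin of cytotoxic lymphocytes, at 282 against 263 CPM (0.099). Prf1, the perforin gene, was low in both arms at 22.7 and 18.7 CPM (0.27, interval -0.0076 to 0.58). Gzmd, Gzme, Gzmf and Gzmg had 0 UMIs in both arms.

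Gzma, the granzyme A gene, had 154 UMIs in the positive and 18 in the zero arm, but they came from 13 and 7 cells. A single positive cell held 51 of them and 10 cells held 151, so this contrast rests on a handful of cells. Among killer cell receptors, Klrd1, which pairs with NKG2 chains, was the 1 gene tested and stood at 223 against 182 CPM (0.30). Klrk1, the gene of the activating receptor NKG2D, was below the limit of 50 CPM at 22.4 against 12.5 CPM (0.80). Fasl, a death ligand, was at 24.6 against 16.5 CPM (0.55). Klrg1, a receptor of terminal effectors, and the inhibitory receptor gene Havcr2 had 0 UMIs in both arms, which allows up to 3 UMIs in the 9546456 and 9541500 UMIs of the arms.

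Some effector transcription factors were higher in Gzmb-positive cells and others were level. Id2, which supports effector CD8 T cells, stood at 278 against 202 CPM (log2 0.46) and was found in 61.6% against 50.1% of cells. Eomes, a T-box factor of memory and killer cells, stood at 62.2 against 45.5 CPM (0.44), while Tbx21, which encodes the T-box factor T-bet, was below the limit at 22.7 against 18.8 CPM (0.26). Runx3, a factor of the CD8 lineage, was at 309 against 311 CPM (-0.010), and Stat4, a signal transducer of IL-12, differed by 0.021. Of the effector transcription factor list 4 of 16 genes were tested, with a median of 0.23. Eomes was tested through the positive arm alone, so its direction was fixed by the filter. The median rests in part on Eomes, and no tally of signs is given.

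Tcf7, at chr11:52252371-52283014 on the minus strand, stood at 118 CPM (112 to 126) in positive and 150 CPM (142 to 158) in zero cells, a log2 difference of -0.33 (-0.45 to -0.22). It was found in 41.9% of positive and 49.7% of zero cells. Dapl1, a gene of naive and memory T cells at chr2:59484653-59505020 on the plus strand, stood at 103 against 128 CPM (-0.31), and Ccr7, the lymph node homing receptor, at 129 against 156 CPM (-0.27). Of 22 genes of the naive and memory list 15 were tested and 0 passed 1.5-fold. Of those 15 genes 13 were below and 2 above 0, with a median of -0.094 against 0.019 for all tested genes. Among all tested genes 58.4% were above 0. Il7r, the IL-7 receptor gene, was at 84.5 and 85.2 CPM (-0.011), but at 57.9 CPM in cells with 3 to 5 Gzmb UMIs against 87.7 CPM in cells with 0, in depth-weighted means. Outside the lists, and chosen after their values were seen, Arl5c stood at 43.4 against 56.0 CPM (-0.36), Nsg2 at 57.1 against 72.6 CPM (-0.34) and Bcl11b, a T cell identity factor, with 1639 against 1908 UMIs (-0.22). Arl5c was tested through the Gzmb-zero arm alone, which ties its direction to the filter.

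Of the chains of the IL-2 and IL-15 receptors, 3 were tested, and Il15ra was below 50 CPM in both arms (-0.038). Il2rb, the beta chain, stood at 316 against 272 CPM (log2 0.21), and Il2rg, the gamma chain, stood at 233 against 241 CPM (-0.048), but at 0.20 with 3 or more Gzmb UMIs. Il2ra, the alpha chain of the IL-2 receptor, stood at 59.9 against 59.6 CPM here, although it was higher in the Gzmb-positive cells of all 17 other libraries that allowed this split, with no limit on its level there. Part of the Il2rg exons, 30.5%, overlaps the annotated gene Gm20489 on the same strand. Of 9 tested STAT5 target genes 7 were above 0 and 2 below with 0 past 1.5-fold, and their median was 0.063. The share above 0 over all tested genes was 58.4%, with a median of 0.019. Cish, a feedback inhibitor induced by STAT5, stood at 130 against 112 CPM (0.22), and Bcl2, a survival gene, at 985 against 998 CPM (-0.020).

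Several of the differences were larger in cells with more Gzmb UMIs, and others kept no order. In depth-weighted means, Ccl5 stood at 444 CPM in cells with 0 Gzmb UMIs, 652 with 1, 775 with 2 and 955 with 3 to 5. Ccr2 stood at 46.8, 66.6, 78.9 and 92.0 CPM over the same classes, and S100a6 at 1234, 1535, 1775 and 1903 CPM. Tcf7 ran the other way at 149, 128, 112 and 95.8 CPM, as did Dapl1 at 129, 108, 89.0 and 80.4 CPM. Ifitm1 did not keep an order, at 95.2, 151, 134 and 131 CPM, nor did S100a4 at 244, 337, 409 and 392.4 CPM. Anxa2, at 172, 218, 299 and 247 CPM, and Eomes, at 45.8, 60.5, 53.8 and 70.1 CPM, kept none either, although each class with Gzmb was above the cells without it. Of the 3 genes past 1.5-fold, 2 stepped up with every class. These 3 genes were chosen from the same cells, so a rise above the cells with 0 UMIs was part of their choice. The share of all tested genes that step up was not computed. The 23 cells with 6 or more UMIs covered 38.1% of the depth bins, and their Ccl5 level was 2668 CPM and their Tcf7 level 61.5 CPM.

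**Figure D3:**
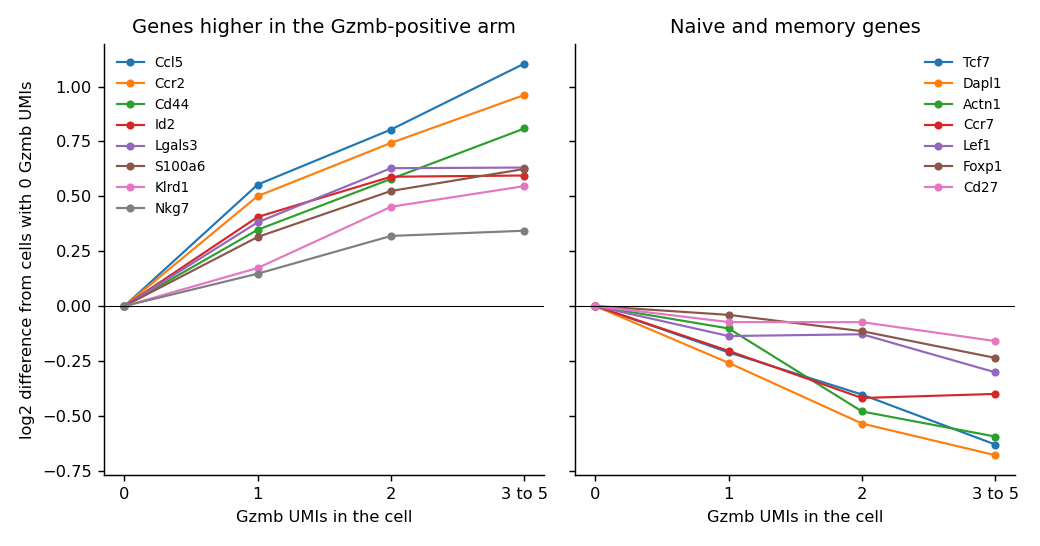
log2 difference from cells with 0 Gzmb UMIs (y axis) for cells with 0, 1, 2 or 3 to 5 Gzmb UMIs (x axis), from depth-weighted CPM; each line is a gene, with genes higher in the positive arm at left and naive and memory genes at right. Ccl5 reaches 1.10 and Ccr2 0.96 in cells with 3 to 5 UMIs, and Tcf7 reaches -0.63.

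With the positive arm limited to cells with 3 or more Gzmb UMIs, 268 cells per arm remained. Of 2485 tested genes 44 were then at least 1.5-fold higher (1.77%) and 11 lower (0.443%). Most of the 44, among them Cd44 and Eomes, were under 50 CPM in the Gzmb-zero arm. Most of the 11 were under 50 CPM in the positive arm. Such genes were tested only through the arm where they were high, so their direction was fixed by the filter and both counts are a description. The arms of this comparison were smaller and the intervals wider, and the part of counting error in the larger count was not tested. Ccl5 was 886 against 400.3 CPM (log2 1.14) and Lgals3 311 against 155 CPM (0.99). On the lower side Tcf7 was 97.6 against 154 CPM (-0.65), and Actn1, a cytoskeletal gene listed with the naive genes, was 61.3 against 94.1 CPM (-0.61). All 3 genes past the limit in the full comparison were among the 44. The largest values belonged to cell division genes chosen after they were seen, Ccnb2, a mitotic cyclin, at 84 against 30 UMIs (1.43) and Cks1b, a subunit of cyclin-dependent kinases, at 110 against 41 UMIs (1.39). Both were under 50 CPM in the cells without Gzmb and were tested only through the arm where they were high, so these values are a description.

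Whether positive cells cycled more depended on how depth was handled. Cells were called cycling with a UMI of Mki67 or Top2a, genes of dividing cells. Over all cells 17.1% of Gzmb-positive cells and 11.6% of Gzmb-zero cells were cycling. After matching on depth the shares were 16.2% (14.5 to 18.0%) and 16.9% (15.2 to 18.8%), which was not a detectable difference at this depth. Weighted to equal depth, the share was 16.4% at 0 Gzmb UMIs, 15.5% at 1, 16.1% at 2 and 18.7% at 3 to 5. When cells were thinned to 2000 UMIs instead, a Gzmb UMI was found in 17.6% of 482 cycling cells (14.3 to 21.3%) and 13.6% of 5956 others (12.7 to 14.5%), intervals that overlapped only at their ends.

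Division genes were above 0 in the matched comparison by less than 1.5-fold. The 7 tested mitosis genes had a median of 0.20 and the 6 tested DNA replication genes one of 0.16, and 0 of either list passed the limit. Of the mitosis genes 3 (Birc5, Cenpa and Nusap1), and Mcm3 of the replication genes, reached 50 CPM only in the positive arm, so their direction was fixed by the filter and no tally of signs is given. Mki67 stood at 61.4 against 52.8 CPM (log2 0.21), but at -0.063 when positive cells had 2 or more Gzmb UMIs. With 3 or more Gzmb UMIs it was at 0.55 (0.17 to 0.96). Birc5, a mitotic survivin gene, stood at 51.0 against 39.1 CPM (0.38). The mitosis median was 0.040 with 2 or more Gzmb UMIs and 0.92 without depth matching. With 3 or more Gzmb UMIs 10 mitosis genes were tested, their median was 0.71 and 6 were past 1.5-fold upward. Those 6 were tested only through the positive arm, so their direction was fixed by the filter. The size of the median thus turned on how cells were matched and chosen.

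Metabolic genes differed by small amounts. Over all tested genes 58.4% were above 0, with a median of 0.019. Of 17 tested glycolysis genes 15 were above 0, with a median of 0.098, and Gapdh, a glycolytic enzyme, stood at 2659 against 2445 CPM (log2 0.12). Of 73 tested oxidative phosphorylation genes 59 were above 0, with a median of 0.053. Of 82 tested ribosomal protein genes 69 were below 0, with a median of -0.030, and no gene of these 3 lists passed 1.2-fold. Fabp5, a fatty acid binding protein gene outside the lists and chosen after its value was seen, stood at 73.3 against 55.7 CPM (0.39).

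**Figure D4:**
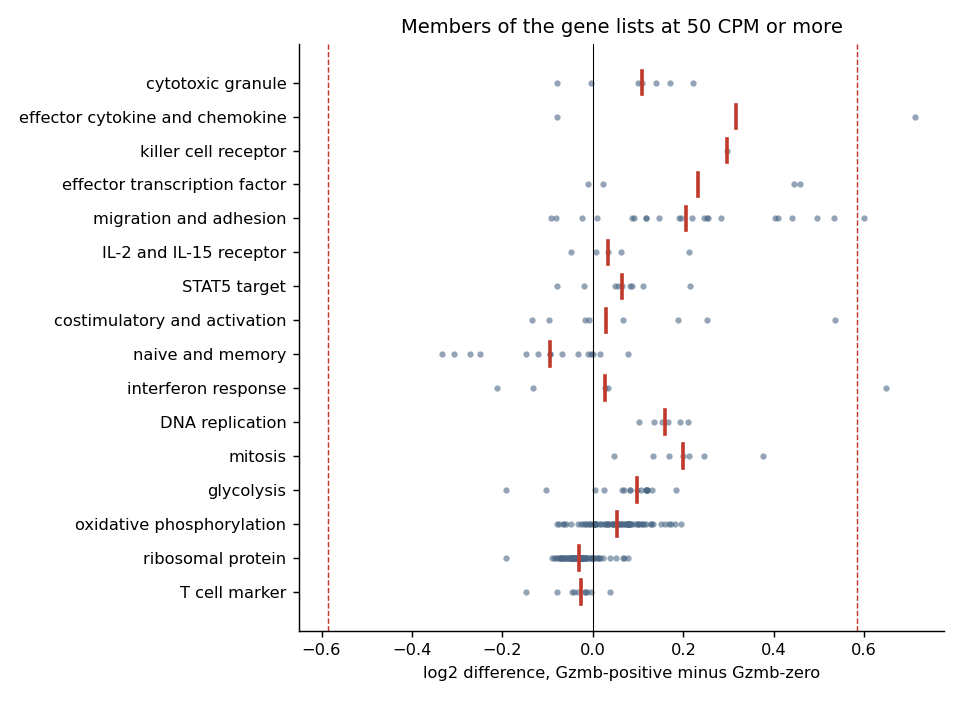
log2 difference of Gzmb-positive minus Gzmb-zero cells (x axis) for the members of each gene list (y axis) at 50 CPM or more; points are genes, red bars are list medians, and dashed lines mark 1.5-fold. The migration and adhesion list has a median of 0.21 and the naive and memory list one of -0.094.

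The same split was made in the 17 other libraries that gave at least 50 matched cells per arm, with 116 to 1804 cells per arm. Naive cells, 50 IU/mL IL-2 on day 10 and 5 IU/mL IL-15 on day 10 gave 49, 36 and 37 and were left out. Among the libraries where the gene reached 50 CPM, S100a6, Anxa2, Lgals3 and Id2 were higher in Gzmb-positive cells in 17 of 17, S100a4 in 15 of 15, Ccl5 in 16 of 17, Ifitm1 in 9 of 9 and Ccr2 in 8 of 9. Tcf7 was lower in 16 of 16, Dapl1 in 15 of 15 and Arl5c in 12 of 12. A gene can reach 50 CPM through a single arm, as Arl5c did in the library described here, which ties its direction to the filter. With no limit on level, Tcf7 and Dapl1 were lower in all 17 libraries. These libraries are separate measurements of the same split, at other doses and days. In 50 IU/mL IL-15 on day 5, the split with the most cells, Ccl5 differed by 1.03, Ccr2 by 0.62, S100a6 by 0.64 and Tcf7 by -0.50, with 11 of 2618 genes past 1.5-fold upward (0.42%) and 3 downward (0.115%).

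Ccl5 went against this in 50 IU/mL IL-2v on day 10, at 111 CPM in Gzmb-positive and 241 CPM in Gzmb-zero cells (log2 -1.11, interval -1.73 to -0.53) over 116 cells per arm. Ccr2 differed there by -0.021. Among libraries where the gene reached 50 CPM, Cd44 was higher in 12 of 15, Klrd1 in 14 of 17 and Eomes in 4 of 4. With no limit on level, Cd44 and Eomes were each higher in 14 and lower in 3 of the 17, Ifitm1 was higher in 16 and Ccr2 in 15. Of the 25 genes past 1.2-fold upward, 19 of the 23 that reached 50 CPM in 50 IU/mL IL-15 on day 5 were higher there too, where 53.7% of all tested genes were above 0. In 50 IU/mL IL-2v on day 10 it was 15 of 24, with 53.1% of all genes above 0. Over all 17 libraries, 8 of the 25 higher genes had the same direction wherever they reached 50 CPM. Of the 9 lower genes 8 reached it elsewhere, and 5 of those 8 had the same direction throughout. The share of all tested genes with a single direction throughout was not computed, so both counts are a description. A gene could reach 50 CPM in few libraries, as Eomes did in 4, or through a single arm. The mitosis genes went the other way in most, with Mki67 and Birc5 each lower in 14 of the 17 with no limit on level.

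**Figure D5:**
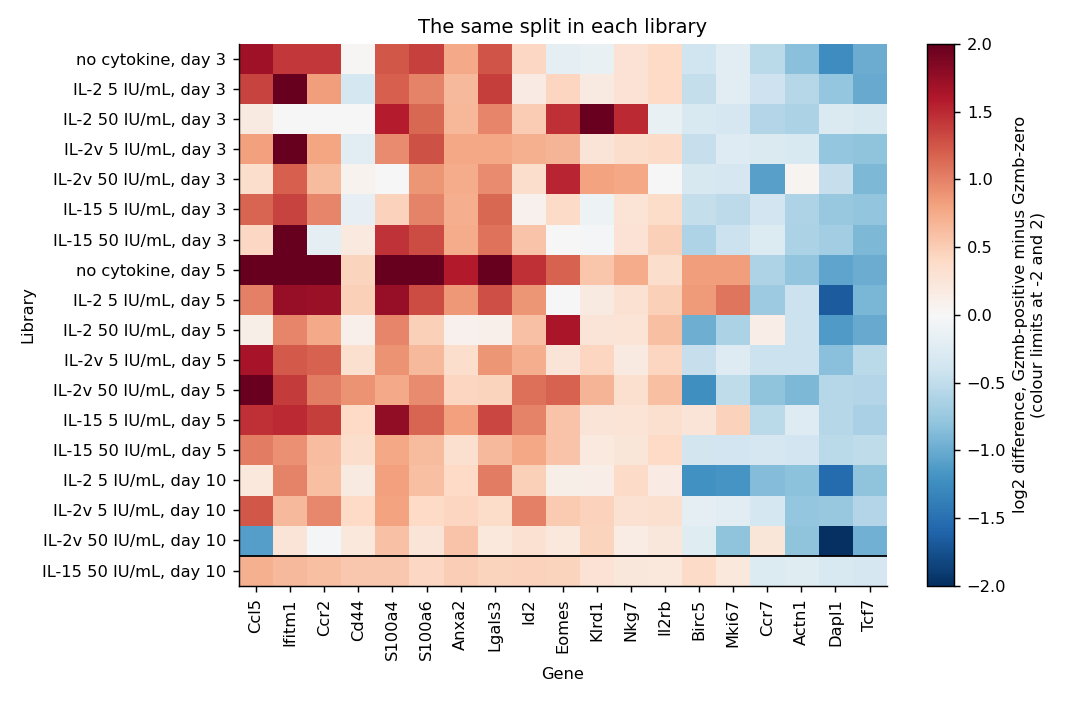
log2 difference of Gzmb-positive minus Gzmb-zero cells (colour, limits at -2 and 2) for 19 genes (x axis) in each library with at least 50 matched cells per arm (y axis); the bottom row, under the line, is 50 IU/mL IL-15 on day 10. S100a6 and Lgals3 are red in every row and Tcf7 and Dapl1 blue in every row, while Ccl5 is blue in 50 IU/mL IL-2v on day 10.

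Markers of other cells were at 0 in part, and Ighm and Trdc were detected at levels of the same order in both arms. Cd4 and Foxp3 of the 4 CD4 T cell markers, Ncr1 and 2 more of 6 NK markers, Ms4a1 and 2 more of 8 B cell markers, Lyz2 and 2 more of 7 myeloid markers in the table, and all 3 erythroid markers in the table had 0 UMIs. The summed level was 4.82 against 3.56 CPM for the NK list, 234 against 244 CPM for the B cell list and 81.3 against 68.9 CPM for the myeloid list. The B cell sum was almost all Ighm, at 220 against 233 CPM, and the myeloid sum almost all Cst3, a widely expressed protease inhibitor gene, at 79.0 against 67.1 CPM. In the comparison of cells with 3 or more Gzmb UMIs, Ighm stood at 188 against 245 CPM (log2 -0.39, -0.60 to -0.17) and Cst3 at 98.8 against 66.1 CPM (0.57, 0.22 to 0.94), and their part in that comparison was not tested. Trdc, the delta chain constant region, was at 173 against 189 CPM. An alternative left out cells with UMIs of at least 2 markers from the B cell, myeloid and erythroid lists, Ighm not counted. It also left out cells with Cd4 and neither Cd8a nor Cd8b1. Without these 164 cells, Ccl5 stayed at a difference of 0.73, Ifitm1 at 0.69 and Ccr2 at 0.63. NK and gamma delta T cell markers were not used to leave cells out.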

How the data were processed

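Single-cell RNA of 21 mouse T cell libraries was deposited by the authors as UMI counts per gene symbol and cell, whole numbers for 17516 symbols. Cell Ranger, Seurat 4.0.1 and 3.0.2 and mm10 are named per the submitters' processing notes; the annotation, the filters and any doublet removal are not given in the sources used here. Files held only cells with 1002 or more UMIs. Limits of 1000 UMIs, 500 genes and 10% mitochondrial UMIs per cell removed 2 cells. No doublet caller was run; cells above 2 times the median UMIs were left out as an alternative.

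Gzmb-positive and Gzmb-zero cells were drawn in equal numbers from bins of 100 UMIs (seed 1), their counts were summed without Gzmb and scaled to CPM, and genes at 50 CPM in either arm were compared as log2(CPM + 1), with 1.5-fold as the limit. Level intervals are exact Poisson, share intervals exact binomial (Clopper-Pearson) and ratio intervals exact conditional, all at 95%, and no p-value was computed. Named genes were up to 12 past the limit in each direction, plus members of the gene lists. Members, lists and rule were chosen with earlier results of these data known, and genes outside the rule after their values were seen. Alternatives covered matching, thinning, Gzmb cut-offs, cycling, cell filters, scaling, pseudocount and fold. The procedure was tested on simulated data. Gene positions were from GENCODE vM21 and promoters from RefSeq. Python 3.11.15, numpy 2.4.6, scipy 1.17.1, R 4.3.3 and edgeR 4.0.16 (TMM factors only) were used. Some genes of the lists are not reported here.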

Additional observations from a re-analysis of the deposited data

Results flagged for a closer look

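The median log2 difference of the mitosis list, Gzmb-positive minus Gzmb-zero cells, was 0.20 in 50 IU/mL IL-15 on day 10 over 7 tested genes, of which 3 reached 50 CPM only in the Gzmb-positive arm. On the same day it was -1.17 in 5 IU/mL IL-2, -0.21 in 5 IU/mL IL-2v and -0.43 in 50 IU/mL IL-2v. It drew attention because the direction here was opposite to that of the 3 other libraries of day 10 that allowed the split. The difference between the libraries was not tested, since each condition had 1 library.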

How the results depend on the processing

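No paired analysis was possible because each condition had 1 library. The counts of genes past the limit, 3 higher and 0 lower, moved with most choices. Higher genes numbered 14 without depth matching, 7 after thinning to 2000 UMIs, 11 with 2 or more Gzmb UMIs, 44 with 3 or more, 5 among cells not called cycling, 5 from 20 CPM, 0 at 2-fold and 25 at 1.2-fold. Lower genes numbered 1 after thinning, with 2 or more Gzmb UMIs, with totals without ribosomal protein and mitochondrial genes, and from 20 CPM; they numbered 11 with 3 or more Gzmb UMIs and 9 at 1.2-fold. With no expression filter, 1.47% of all genes with a UMI were higher and 0.881% lower. The 1.2-fold limit was chosen after seeing the data. Matching on depth and cycling gave 3 higher genes, of which 1 was among the 3 above; Ifitm1 was then at 0.57 and Ccr2 at 0.58, under the limit. Ccl5 was at 0.56 after thinning, and Ccr2 at 0.58 under TMM scaling or with totals without ribosomal protein and mitochondrial genes and at 0.52 with a pseudocount of 10 CPM. Tcf7 ranged from -0.65 to -0.31 and S100a6 from 0.37 to 0.58 over 14 alternatives. Small differences changed sign in some alternatives: Cxcr3 reached 0.077 and Trdc 0.039 among cells not called cycling, Srgn 0.11 with 2 or more Gzmb UMIs, and Il2ra -0.21 and Stat4 -0.18 with 3 or more. Runx3 kept its sign in 4 of 14 alternatives. The share of Gzmb-positive cells was 7.80% at 1000 UMIs and 27.7% with no thinning. Cells with at least 2 Gzmb UMIs made up 2.41% after thinning to 2000 UMIs and 9.88% with no thinning. Cycling shares were 68.3% and 66.6% when called from at least 3 UMIs of the cell cycle lists, and 11.6% in Gzmb-zero cells without depth matching. At 1 UMI per positive cell in most, depth limits which cells count as positive, and the Gzmb-zero arm may hold cells with uncaptured Gzmb.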
